A study of Cyclotella cryptica with 27 samples.

Results

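The genes of mitochondrial respiration and ATP synthesis were followed in Cyclotella cryptica, a centric diatom, after its cells were moved abruptly from artificial seawater into freshwater. Members were all genes whose deposited protein name held the words NADH dehydrogenase, ubiquinone, cytochrome b, cytochrome c, ATP synthase, alternative oxidase or mitochondrial import, and neither peroxidase nor photosystem. This gave 88 of 21250 genes, or 1.51% of the 5810 genes with a protein name. The rule used names and no measured value, but it was set with earlier results of these data known. The freshwater groups were strain CCMP332 cells at 0, 15 and 30 min and at 1, 2, 4, 8 and 10 h after transfer to 0 ppt, and the seawater control was the same strain at 24 ppt. All groups were kept at 15 °C, were grown before transfer on a cycle of 16 h light to 8 h dark, and the transfer was made by spinning cells down at 800 rcf for 3 min and resuspending them in freshwater medium. The seawater control was taken at 0 min, and the labels do not say whether its cells were spun too. No seawater control was taken later, so changes with time in freshwater cannot be told apart from time of day or time since handling. Transcripts were measured by sequencing of polyA RNA, with 3 labelled replicates in each of 9 groups.

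In mitochondria, complexes I and II and the alternative NADH dehydrogenases pass electrons to ubiquinone, complex III passes them on through cytochrome c to complex IV, and complex IV reduces oxygen. Complexes I, III and IV pump protons, and ATP synthase uses the proton gradient to make ATP. The alternative oxidase of plants, algae and fungi takes electrons from ubiquinol directly to oxygen without pumping protons, and diatoms exchange reducing power and ATP between their plastids and mitochondria.

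Of the 27 deposited columns, 16 were independent, because some labelled replicates were copies or weighted means of others in the same group. The seawater control, 0 min and 1 h then had 1 column each, 10 h had 3 and the other times had 2. A group of 1 column was assumed to vary like the groups with more, and nothing in the labels says that replicates were separate cultures, so p-values measure only the spread between these columns. These columns held 2809130 to 6889349 gene counts, and 25 of 26 genes for fucoxanthin-chlorophyll proteins, the light-harvesting proteins of diatoms, had counts in every one. All 88 members passed the filter on low counts and had counts in every independent column. Levels are given in CPM, each count scaled to a fixed total of the column's gene counts multiplied by its TMM scaling factor, which evens out composition between columns. They are not corrected for gene length and are compared only between columns, for 1 gene or for a sum over the same genes. Abundant transcripts weigh most in such sums. In such bulk libraries, fewer cells making a transcript and less of it per cell cannot be told apart.

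By role in their names, 14 members were complex I subunits, 3 were of complex II, 3 of complex III, 1 was cytochrome c, 1 was of complex IV and 5 were ATP synthase subunits. These 27 genes are called the chain and ATP synthase subunits below. A further 6 were alternative NADH dehydrogenases, 1 was the alternative oxidase and 9 were named for ubiquinone synthesis, some of them also for menaquinone. Another 12 were assembly factors or heme lyases, 4 were phosphate carriers, 9 were import translocases and 1 was the electron transfer flavoprotein-ubiquinone oxidoreductase. The words also caught 11 cytochrome b5 and b561 proteins, which work mostly outside the respiratory chain, and 8 plastid proteins. By name, the other 69 members belong to respiration, ATP synthesis and import, and these 19 are described separately.

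Most of the change in these transcripts fell at 30 min and 1 h. At 30 min, 24 members rose and 11 fell against the seawater control, out of 88 tested (edgeR's quasi-likelihood test, Benjamini-Hochberg adjusted p below 0.05 over all 12501 genes tested). That is 39.8% of members, where 30.7% of all genes passed in either direction, 14% higher and 16.7% lower. At 1 h, 9 rose and 9 fell, where 18.4% of all genes passed, 9.79% higher and 8.61% lower. The median log2 fold change of the members was 0.38 at 30 min and 0.37 at 1 h, against 0.09 and 0.05 for all genes tested at those times.

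Calls were few before and after. No member passed at 0 min, 15 min or 8 h, where 0%, 0.088% and 0.024% of all genes did. At these times, 7, 12 and 9 members had an unadjusted p below 0.05, and DESeq2 called 0, 1 and 1. At 2 h 2 members passed (4.89% of all genes), at 4 h 1 passed (3.77%) and at 10 h 4 passed (8.33%). Leaving out 1 replicate at a time gave 0 to 7 at 2 h, 1 to 8 at 4 h and 0 to 9 at 10 h. Across the 9 groups, 48 members differed, or 54.5%, where 40.9% of all genes did. Of these 48, the change of greatest size from the seawater control fell at 30 min in 28 and at 1 h in 12.

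**Figure D1:**
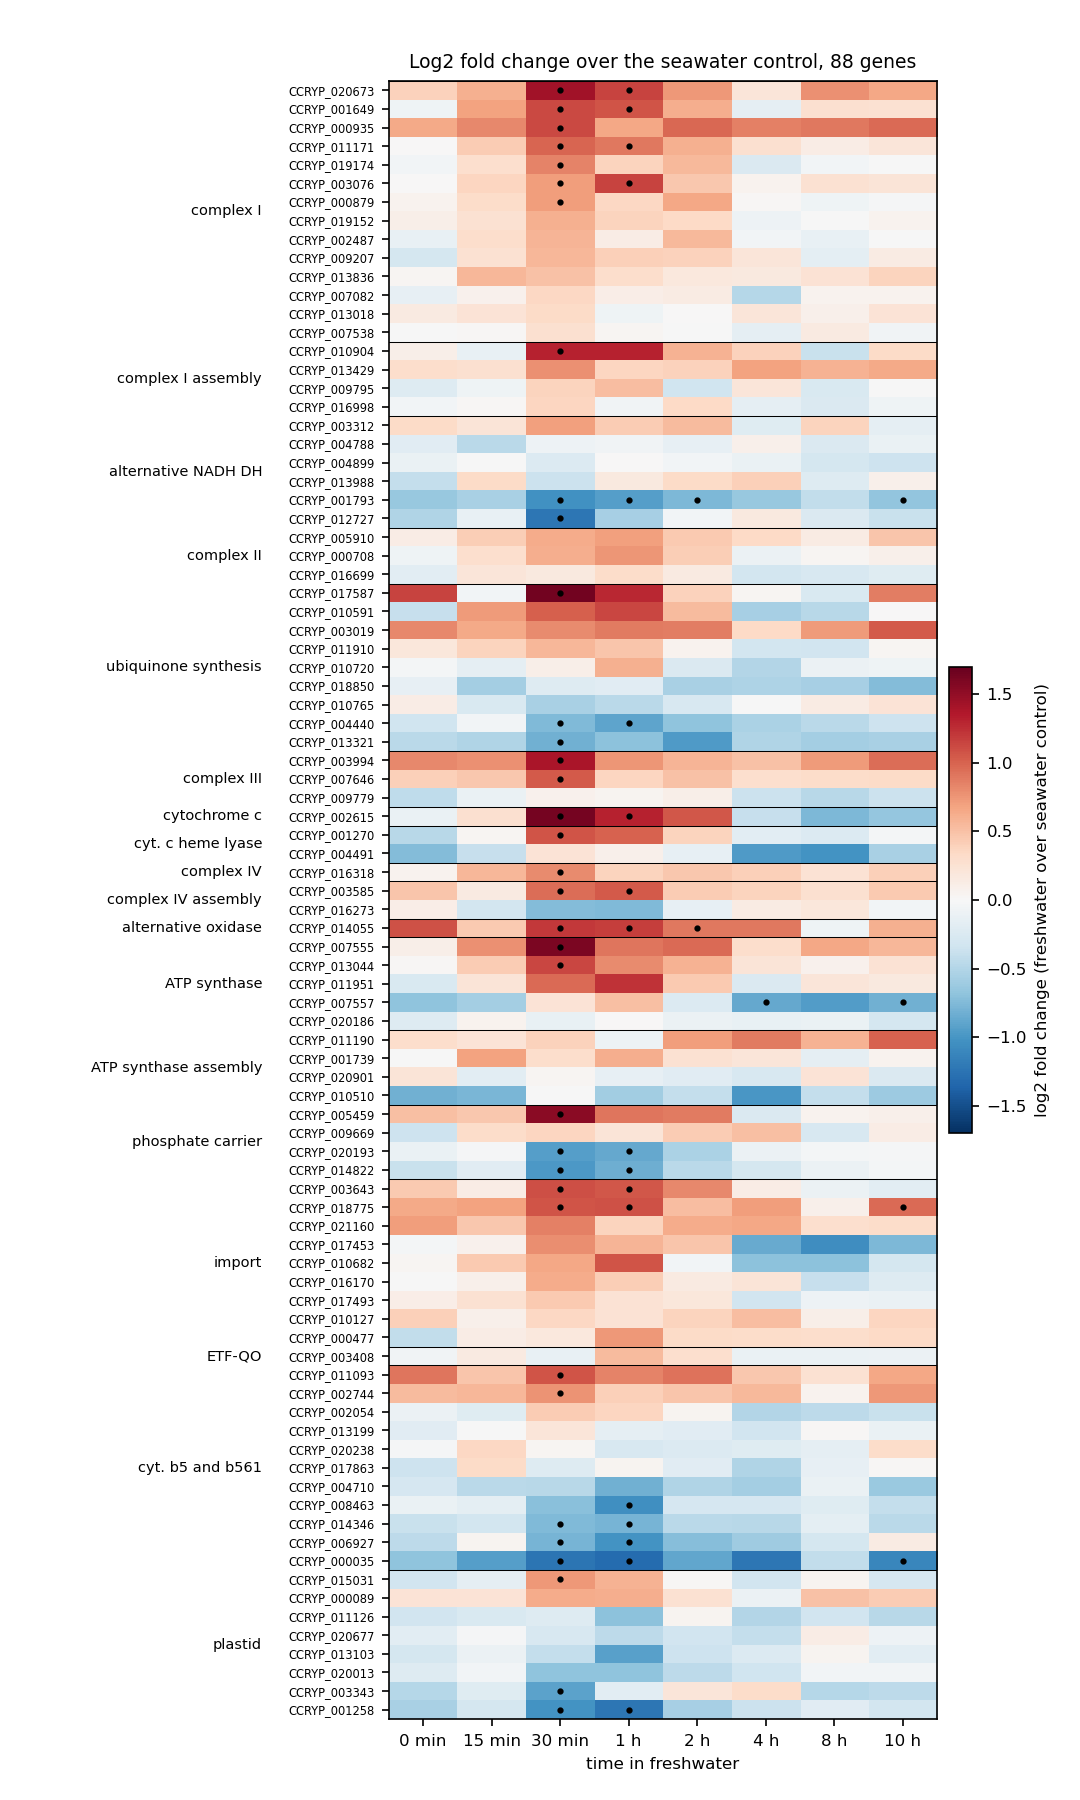
Log2 fold change of each of the 88 members (rows, grouped by role) at each time in freshwater (columns) over the seawater control, red for higher and blue for lower, with a dot where edgeR's adjusted p was below 0.05. Dots gather at 30 min (35) and 1 h (18), and the complex I, complex III, cytochrome c and import rows there are mostly red.

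The number called at 30 min depended on 1 library. Without 30 min replicate 2, which held the 6889349 gene counts, 16 members passed at 30 min and 30 passed across the groups. The median log2 fold change of the members at 30 min was then 0.54. Scaling by library size alone raised the median of all genes at 30 min by 0.26 and gave 37 higher and 7 lower members.

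The chain and ATP synthase subunits moved to one side. At 30 min 13 of 27 rose and 0 fell, where 14% of all genes rose and 16.7% fell. At that time 26 of 27 had a positive log2 fold change, and the median was 0.70 against 0.09 for all genes. At 1 h 5 rose and 0 fell, with a median of 0.40, where 9.79% of all genes rose and 8.61% fell. At 2 h none passed, although the median was 0.45. Their summed level was 3382 and 3076 CPM in the 30 min columns and 2058 CPM in the seawater control. It was 2030.3 and 2585 CPM at 15 min, 3036 CPM at 1 h and 2399 and 2614 CPM at 2 h, and lay between 1658 and 2319 CPM at 4, 8 and 10 h. Both 30 min columns lay above every other column, and the columns from 4 h on lay on both sides of the control. Without 30 min replicate 2, 7 of the 27 rose at 30 min, and 11 did without replicate 3.

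**Figure D2:**
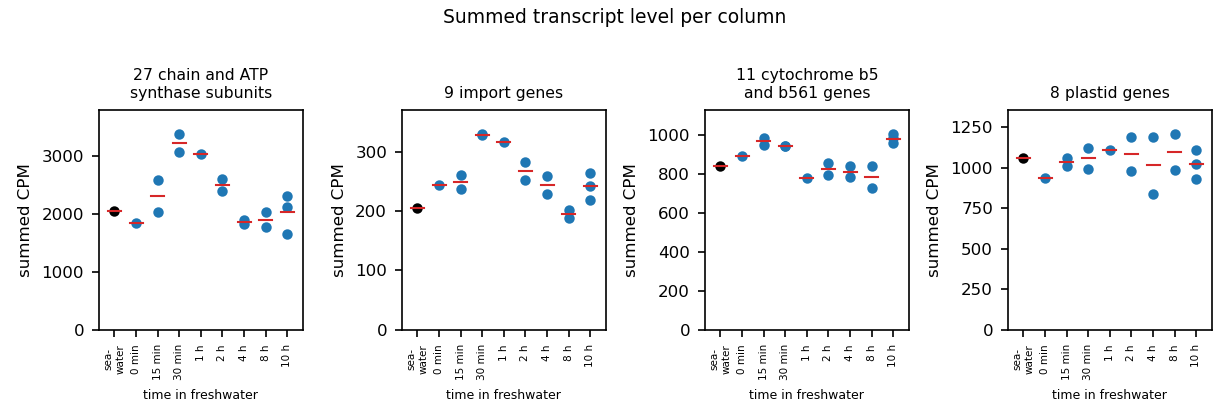
Summed CPM in each independent column (dots, black for the seawater control; red bars are group means) for 4 groups of members by time in freshwater. The 27 chain and ATP synthase subunits peak at 3382 and 3076 CPM at 30 min, and the import genes have their highest sums at 30 min and 1 h.

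Complex I, the proton-pumping NADH dehydrogenase, had 14 subunit genes in the table. All 14 had a positive log2 fold change at 30 min, from 0.27 to 1.42, and 7 passed, where 14% of all genes passed higher. At 1 h 4 passed, all higher, where 9.79% of all genes did. The mitochondrial acyl carrier protein (CCRYP_020673), a complex I subunit that also carries fatty acid intermediates, had 95.5 and 96.0 CPM at 30 min and 79.3 CPM at 1 h, against 35.6 CPM in the seawater control. Both 30 min columns were above all others, the next being 1 h. At 30 min the log2 fold change was 1.42, with an SE of 0.28 (edgeR adjusted p = 0.00118). The ± values below are standard errors as well. Each was taken as the size of the log2 fold change over the square root of the test's F statistic.

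The accessory subunit named alpha subcomplex subunit 6 (CCRYP_001649) had 52.5 and 47.4 CPM at 30 min and 48.1 CPM at 1 h, against 22.9 CPM in the control. Its 15 min columns were apart, at 25.7 and 49.3 CPM, and the higher of them lay within the 30 min range. At 30 min the difference was 1.13 ± 0.32 on the log2 scale (edgeR adjusted p = 0.0103). Alpha subcomplex subunit 9 (CCRYP_003076) was highest at 1 h, with 95.2 CPM against 42.9 CPM in the control and a log2 fold change of 1.15 ± 0.26 (edgeR adjusted p = 0.0047). The core flavoprotein 2 (CCRYP_011171), which holds an iron-sulfur cluster of the NADH-oxidising arm, rose at both times, with log2 fold changes of 0.99 at 30 min and 0.90 at 1 h. Flavoprotein 1 (CCRYP_013836), its partner that binds NADH, had 197 and 194 CPM at 30 min and 138 CPM in the control and did not pass. Without 30 min replicate 2, 2 of the 14 passed at 30 min, with a median log2 fold change of 0.71 in place of 0.66.

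Beta subcomplex subunit 7 (CCRYP_000935) had 24.5 CPM in the seawater control, and its freshwater columns ran from 33.9 to 61.6 CPM, all above it. It passed at 30 min only, at a log2 fold change of 1.12 (edgeR adjusted p = 0.013), and did not pass across the 9 groups (adjusted p = 0.21).

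Complex II, succinate dehydrogenase, had 3 subunits and none passed against the seawater control. The flavoprotein that oxidises succinate (CCRYP_000708) had 90.5 and 86.6 CPM at 30 min and 96.9 CPM at 1 h, against 57.7 CPM in the control. At 30 min its log2 fold change was 0.62 ± 0.24 (edgeR adjusted p = 0.0537). The membrane anchor cytochrome b560 (CCRYP_005910) and the iron-sulfur subunit (CCRYP_016699) had log2 fold changes of 0.63 and 0.17 at 30 min. The electron transfer flavoprotein-ubiquinone oxidoreductase (CCRYP_003408), which brings electrons from fatty acid and amino acid oxidation to ubiquinone, had 24.8 and 22.7 CPM at 30 min and 26.0 CPM in the control and did not pass at any time.

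In complex III, which oxidises ubiquinol, both redox subunits among the members rose at 30 min. The cytochrome b of this complex was not among the members. The Rieske iron-sulfur protein (CCRYP_003994) had 117 and 99.0 CPM at 30 min against 41.4 CPM in the control. It rose by 1.39 ± 0.32 on the log2 scale (edgeR adjusted p = 0.0032). Every freshwater column lay above the control, the lowest at 51.5 CPM and the 10 h columns at 80.7, 102 and 58.2 CPM. Cytochrome c1 (CCRYP_007646), which hands electrons to cytochrome c, had 89.7 and 89.9 CPM at 30 min, above all other columns, against 43.5 CPM in the control. The rise was 1.05 ± 0.26 on the log2 scale (edgeR adjusted p = 0.0047). Core protein I (CCRYP_009779), whose name also covers the peptidase that clips imported proteins, had 143 and 125 CPM against 128 CPM in the control, and its log2 fold change of 0.07 did not pass.

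Cytochrome c (CCRYP_002615), the soluble carrier between complexes III and IV, had the widest range among the 27 subunits. It had 44.7 CPM in the seawater control, 41.2 CPM at 0 min, 34.8 and 74.8 CPM at 15 min, 157 and 117 CPM at 30 min and 111 CPM at 1 h. It then had 93.3 and 92.5 CPM at 2 h, 28.7 and 39.8 CPM at 4 h, 28.0 and 24.6 CPM at 8 h and 27.8, 34.9 and 23.5 CPM at 10 h. The columns from 30 min to 2 h lay above all others, and those of 4, 8 and 10 h lay below the control. Its log2 fold change against the control was 1.62 ± 0.34 at 30 min, a 3.08-fold difference (edgeR adjusted p = 0.00244), and 1.31 ± 0.38 at 1 h (adjusted p = 0.0236). At 8 h it was -0.76 and did not pass (edgeR adjusted p = 0.679).

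Complex IV, cytochrome c oxidase, was represented by subunit 6b (CCRYP_016318) alone. It had 169 and 133 CPM at 30 min against 86.7 CPM in the control, and its 15 min columns were at 113 and 143 CPM, the higher of them between the 30 min values. Subunit 6b rose by 0.81 ± 0.26 on the log2 scale (edgeR adjusted p = 0.0199). This call was lost without 30 min replicate 2, where the log2 fold change was 0.70.

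The 5 ATP synthase subunits did not move as one. The delta subunit (CCRYP_007555) of the rotor stalk had 152 and 127 CPM at 30 min, above all other columns, against 45.9 CPM in the control. Delta rose by 1.61 ± 0.32 on the log2 scale, a 3.04-fold difference (edgeR adjusted p = 0.00163). The OSCP subunit of the peripheral stalk (CCRYP_013044) had 333 and 299 CPM against 144 CPM in the control and a log2 fold change of 1.13 ± 0.26 (adjusted p = 0.00253). The gamma chain (CCRYP_011951), the central shaft, had 171 and 131 CPM at 30 min and 182 CPM at 1 h, against 77.9 CPM in the control. Its log2 fold changes of 0.96 and 1.22 did not pass (edgeR adjusted p = 0.0732 and 0.0644).

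The catalytic beta subunit (CCRYP_007557) followed another course. It had 552.9 CPM in the control, 344 CPM at 0 min, 339.9 and 399 CPM at 15 min, 669.6 and 625 CPM at 30 min and 790.4 CPM at 1 h. From 4 h on all 7 columns lay between 272 and 332 CPM, below the control. Against the control it fell by 0.87 ± 0.21 on the log2 scale at 4 h (edgeR adjusted p = 0.0194) and by 0.81 ± 0.19 at 10 h (adjusted p = 0.0131). No member was called at 10 h without 10 h replicate 1. It did not pass at 30 min, where the log2 fold change was 0.23. Against 0 min, where it was already at the lower level, it rose by 0.91 on the log2 scale at 30 min and rose at 1 h too (edgeR adjusted p = 0.0136 and 0.00446). The alpha subunit (CCRYP_020186), which alternates with beta in the catalytic head, lay between 44.2 and 62.3 CPM in all 16 columns and did not pass across the groups (edgeR adjusted p = 0.664). The names of the gamma and alpha subunits give no location, so they may not be mitochondrial copies.

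**Figure D3:**
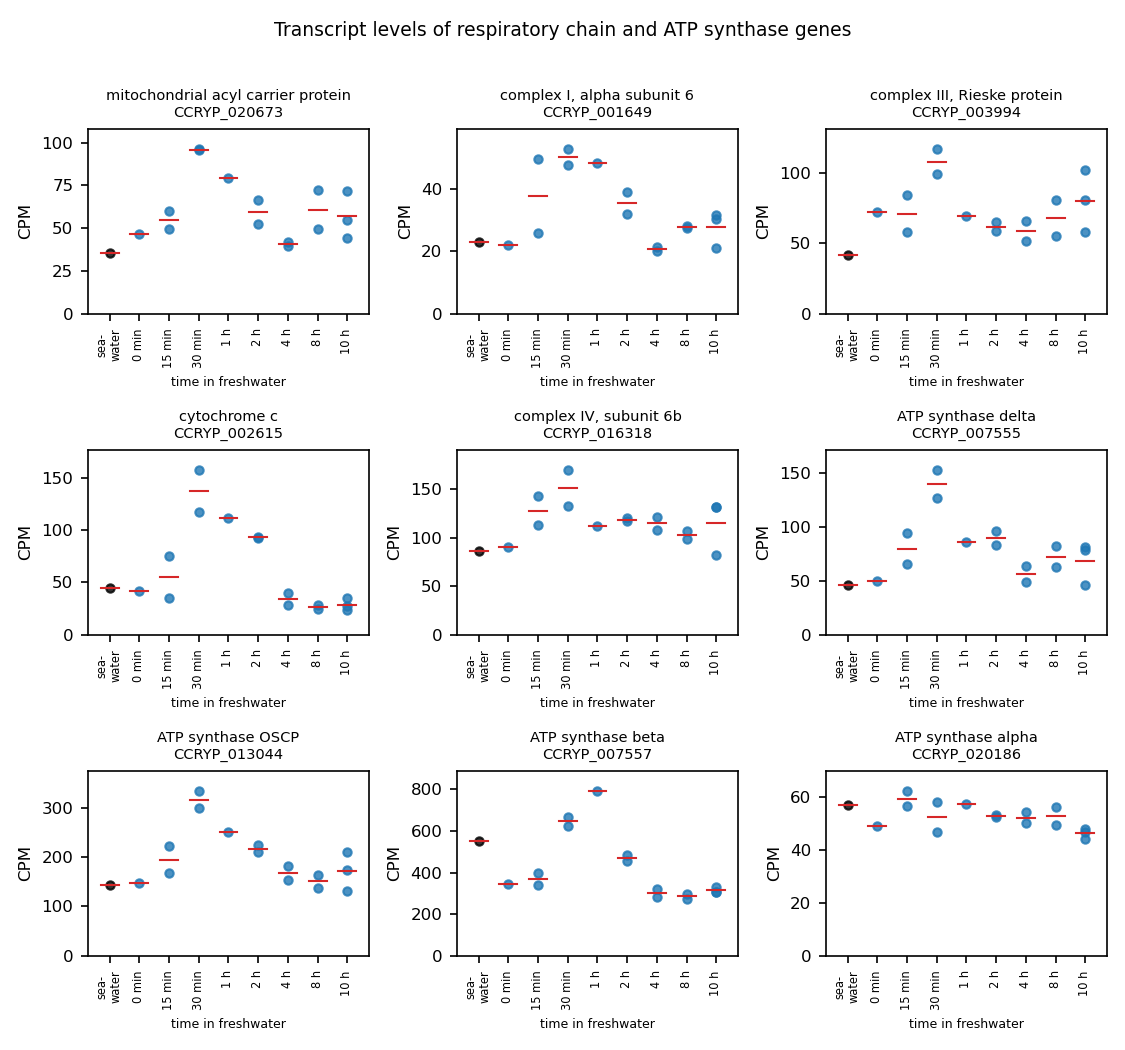
CPM of 9 chain and ATP synthase genes in each independent column (dots, black for the seawater control; red bars are group means) by time in freshwater. Cytochrome c, ATP synthase delta and OSCP peak at 30 min, beta lies lower from 4 h on than in the control, and alpha stays between 44.2 and 62.3 CPM.

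Among enzymes that pass electrons without pumping protons, the alternative oxidase rose and 2 of the 6 alternative NADH dehydrogenases fell. The alternative oxidase (CCRYP_014055) had 53.7 CPM in the control, 114 CPM at 0 min, 65.6 and 80.9 CPM at 15 min, 128 and 119.9 CPM at 30 min and 122 CPM at 1 h. It had 115 and 84.2 CPM at 2 h, 109 and 91.2 CPM at 4 h, 53.6 and 48.3 CPM at 8 h and 83.7, 62.5 and 97.9 CPM at 10 h. The 0 min column was thus near the 30 min level, while the 8 h columns were close to the control. Its log2 fold change against the control was 1.21 ± 0.26 at 30 min, 1.18 ± 0.29 at 1 h and 0.89 ± 0.26 at 2 h (edgeR adjusted p = 0.00191, 0.00805 and 0.0469). At 0 min it was 1.08 ± 0.29 and did not pass (edgeR adjusted p = 0.143). No member was called at 2 h without 2 h replicate 1, without 10 h replicate 1 or without either 8 h replicate.

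The external alternative NADH dehydrogenase (CCRYP_012727), which in fungi oxidises cytosolic NADH at the outer face of the inner membrane, had its lowest levels at 30 min. It had 314 and 347 CPM in those columns, below all others, and 771 CPM in the control. Its log2 fold change was -1.22 ± 0.24 (edgeR adjusted p = 0.00116). At 2 and 4 h it had 663 and 829 CPM and 737 and 991 CPM, on both sides of the control. A second such enzyme (CCRYP_001793), named after a fission yeast NADH-ubiquinone oxidoreductase, had 74.4 and 85.7 CPM at 30 min and 163 CPM in the control. All 15 freshwater columns of this gene lay below the control. It fell at 30 min, 1 h, 2 h and 10 h, by 1.03, 0.94, 0.77 and 0.67 on the log2 scale. The other 4 genes placed in this role did not pass against the control. Of these, CCRYP_003312 had a log2 fold change of 0.69 at 30 min. Its name also gives an NADH:oxygen oxidoreductase, so it may not pass electrons to ubiquinone.

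**Figure D4:**
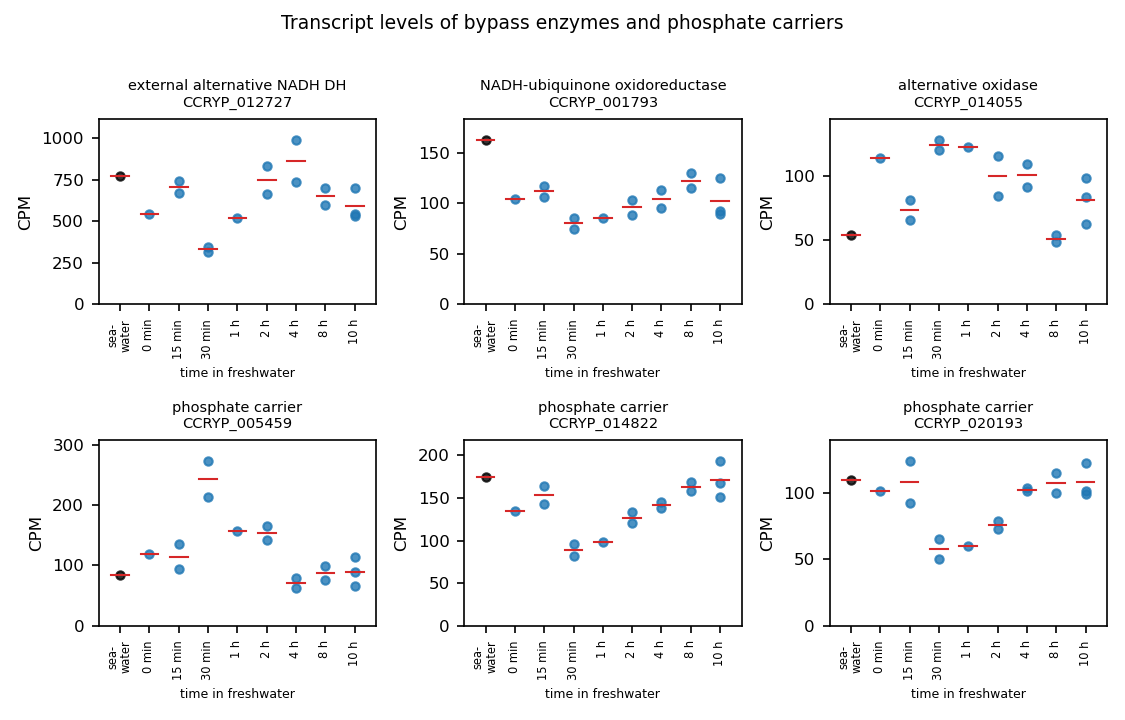
CPM of 2 alternative NADH dehydrogenases, the alternative oxidase and 3 phosphate carriers in each independent column (dots, black for the seawater control; red bars are group means) by time in freshwater. The external NADH dehydrogenase has its minimum (314 and 347 CPM) at 30 min, when the alternative oxidase and the carrier CCRYP_005459 are high and the other carriers low.

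The 4 mitochondrial phosphate carriers, which bring phosphate into the matrix for ATP synthesis, split. All 4 names came from the same database protein, and reads that aligned to more than 1 copy were left out of the counts. CCRYP_005459 had 214 and 274 CPM at 30 min, above all other columns, against 83.6 CPM in the control. It rose by 1.54 ± 0.30 on the log2 scale (edgeR adjusted p = 0.0012). CCRYP_014822 had 82.3 and 96.0 CPM at 30 min, below all other columns, against 175 CPM in the control, with a log2 fold change of -0.98 ± 0.20 (adjusted p = 0.00148). CCRYP_020193 had 50.5 and 65.8 CPM at 30 min against 110.2 CPM in the control, with a log2 fold change of -0.94 ± 0.22 (adjusted p = 0.00334). The call of CCRYP_020193 was lost without 30 min replicate 2, where the log2 fold change was -0.66. The fourth copy, CCRYP_009669, had 33.3 and 26.1 CPM at 30 min and 23.3 CPM in the control and did not pass. Summed over the 4, the level was 380.1 and 461 CPM at 30 min and 392 CPM in the control, so the sum hid opposite changes of the copies.

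The protein import translocases lay above the control at 30 min. At 30 min all 9 import genes had a positive log2 fold change, with a median of 0.66. Only 2 passed, where 30.7% of all genes passed in either direction and 14% higher. TIM23 (CCRYP_003643), in yeast the channel for proteins with a presequence, had 32.5 and 33.6 CPM at 30 min and 32.2 CPM at 1 h, against 15.4 CPM in the control. At 30 min TIM23 rose by 1.10 ± 0.31 on the log2 scale (edgeR adjusted p = 0.00981). TIM44 (CCRYP_018775), which in yeast tethers the import motor to that channel, rose at 30 min, 1 h and 10 h, by 1.06, 1.08 and 0.96 on the log2 scale. It had 80.5, 71.4 and 69.1 CPM at 10 h, 39.8 and 40.2 CPM at 8 h and 37.7 CPM in the control. TIM14 (CCRYP_017453), a J-protein of the motor in yeast, had 22.7 and 29.1 CPM at 30 min, 6.41 and 7.81 CPM at 8 h and 14.8 CPM in the control. It did not pass against the control at any time.

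Ubiquinone synthesis and the assembly factors were mixed. Among 9 ubiquinone genes 1 rose and 2 fell at 30 min, where 14% of all genes rose and 16.7% fell. Their median log2 fold change was 0.10, close to that of all genes. The O-methyltransferase (CCRYP_017587) had 10.3 and 10.5 CPM at 30 min against 3.32 CPM in the control, a low level at which its log2 fold change of 1.64 ± 0.57 passed narrowly (edgeR adjusted p = 0.0302). It did not pass without 30 min replicate 2, without 30 min replicate 3 or by DESeq2. A UbiB-type kinase (CCRYP_004440) fell, with 46.0 and 59.4 CPM at 30 min against 88.2 CPM in the control and a log2 fold change of -0.76 ± 0.24 (edgeR adjusted p = 0.0211). Another gene of that name (CCRYP_011910) had a log2 fold change of 0.56 ± 0.26 at 30 min and did not pass (edgeR adjusted p = 0.106). A UbiE-type methyltransferase (CCRYP_013321), a name shared by ubiquinone and menaquinone enzymes, fell by 0.82 on the log2 scale. The COQ5 methyltransferase (CCRYP_010591) had 20.1 and 13.3 CPM at 30 min and 8.45 CPM in the control, and did not pass (log2 fold change 1.01, edgeR adjusted p = 0.0525).

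Of the assembly factors, NDUFAF3 for complex I (CCRYP_010904) had 15.4 and 11.10 CPM at 30 min against 5.44 CPM in the control and rose by 1.30 ± 0.49 on the log2 scale (edgeR adjusted p = 0.0434). The complex IV copper factor ctaG (CCRYP_003585) rose at 30 min and 1 h, by 0.95 and 1.04. COX19 (CCRYP_016273), another copper factor for complex IV in yeast, had 11.3 and 13.9 CPM at 30 min against 20.5 CPM in the control, and its log2 fold change of -0.73 did not pass. A cytochrome c heme lyase (CCRYP_001270), which attaches heme to cytochrome c, had 16.5 and 13.9 CPM at 30 min against 7.25 CPM in the control. It passed narrowly at 30 min (log2 fold change 1.07 ± 0.41, edgeR adjusted p = 0.0498) and lost the call under 12 of the alternatives tried. None of the 4 ATP synthase assembly genes passed at any time against the control.

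The 19 members outside the respiratory chain moved both ways. The cytochrome b5 and b561 genes include NADH-cytochrome b5 reductases, and some of their names give a mitochondrial location. Of these 11 genes, 2 rose and 3 fell at 30 min and 0 rose and 4 fell at 1 h. Of all genes, 14% rose and 16.7% fell at 30 min, and 9.79% rose and 8.61% fell at 1 h. Their median log2 fold change at 30 min was -0.22, but 0.04 when scaled by library size alone, so its direction depended on the scaling. A cytochrome b5 (CCRYP_011093) had 52.1 and 52.2 CPM at 30 min against 24.8 CPM in the control and rose by 1.07 ± 0.29 on the log2 scale (edgeR adjusted p = 0.00729). Cytochrome b5 type B (CCRYP_006927), named for the outer mitochondrial membrane, fell at 30 min and 1 h. Its log2 fold changes were -0.79 and -1.01 ± 0.28 (edgeR adjusted p = 0.016 at 1 h). An ascorbate-dependent cytochrome b561 (CCRYP_000035) was lower in all 15 freshwater columns, at 8.02 to 26.7 CPM, than in the control, at 30.2 CPM. It fell at 30 min, 1 h and 10 h, by 1.24, 1.31 and 1.11 on the log2 scale (edgeR adjusted p = 0.00864, 0.039 and 0.0326).

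Of the 8 plastid members, 1 rose and 2 fell at 30 min, where 14% of all genes rose and 16.7% fell. A Rieske protein of the cytochrome b6f complex (CCRYP_001258), the plastid counterpart of complex III, fell at 30 min. It had 32.9 and 41.9 CPM then and 74.9 CPM in the control, with a log2 fold change of -1.02 ± 0.25 (edgeR adjusted p = 0.0044). A second gene named for this protein (CCRYP_020677) did not pass at 30 min. In the control CCRYP_020677 had 639 raw counts and CCRYP_001258 had 248. A plastid terminal oxidase (CCRYP_003343), a relative of the alternative oxidase that oxidises plastoquinol, fell at 30 min. It had 149.5 and 181 CPM then and 309.8 CPM in the control. A second gene of the same name (CCRYP_020013) did not pass at 30 min. The log2 fold change of CCRYP_003343 was -0.91 ± 0.24 (adjusted p = 0.00712), a call that was lost without 30 min replicate 2. The chloroplast ATP synthase gamma chain (CCRYP_015031) had 219.8 and 178 CPM at 30 min against 119.6 CPM in the control and rose by 0.74 ± 0.25 on the log2 scale (adjusted p = 0.0262). This call too was lost without that replicate.

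Against 15 min, 18 members rose at 30 min and 9 fell, where 24.2% of all genes passed, 10.7% higher and 13.5% lower. Cytochrome c (CCRYP_002615) rose by 1.35 ± 0.26 on the log2 scale and CCRYP_005459 by 1.09 ± 0.23 (edgeR adjusted p = 0.00166 and 0.00186). The ATP synthase beta subunit (CCRYP_007557) rose by 0.81 ± 0.17 (adjusted p = 0.00189). Without 15 min replicate 1 the number of members called was 1, and without 30 min replicate 2 it was 10. The 2 columns at 15 min differed, with summed chain and ATP synthase levels of 2030.3 and 2585 CPM.

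The later decline did not use the single control column, but it shares the 30 min columns with the rise at 30 min. There was no seawater control at 8 h. At 8 h 11 members rose and 37 fell against 30 min, with 2 columns on each side, where 35.6% of all genes passed, 16.2% higher and 19.4% lower. Of the 27 chain and ATP synthase subunits 0 rose and 18 fell, with a median log2 fold change of -0.65 against -0.05 for all genes. All 14 complex I subunits were negative and 9 fell, and all 3 complex III subunits fell. Cytochrome c (CCRYP_002615) fell by 2.38 ± 0.28 on the log2 scale, TIM14 (CCRYP_017453) by 1.85 ± 0.30 and the alternative oxidase (CCRYP_014055) by 1.28 ± 0.20 (edgeR adjusted p = 4.09e-06, 4.5e-05 and 4.01e-05). Both heme lyases (CCRYP_001270 and CCRYP_004491) fell, by 1.30 and 1.25. Higher at 8 h than at 30 min were the external NADH dehydrogenase (CCRYP_012727), by 0.98 ± 0.20, and the phosphate carriers CCRYP_014822 and CCRYP_020193, by 0.88 and 0.90 (edgeR adjusted p = 0.000728, 0.000356 and 0.000659). Without 30 min replicate 2 the number of members called was 26, and without 8 h replicate 3 it was 23. The chain and ATP synthase subunits called were then 7 and 4, all lower.

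**Figure D5:**
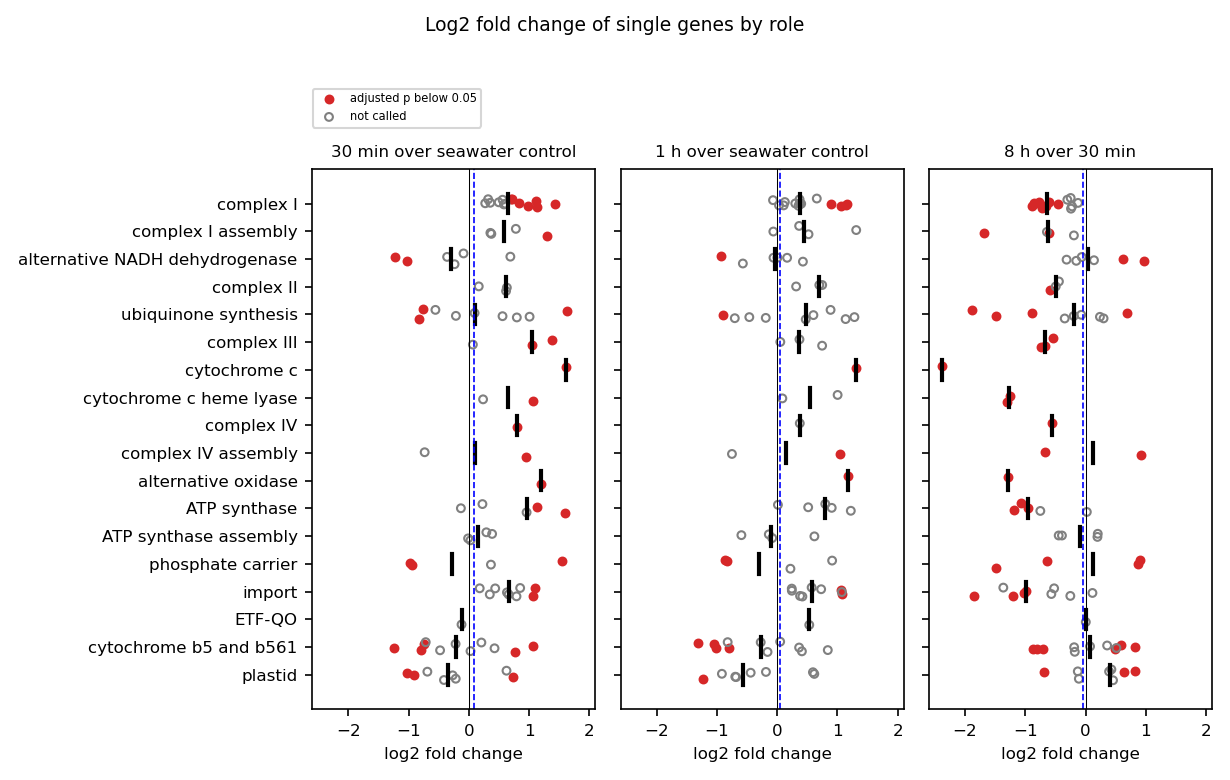
Log2 fold change of each member by role (rows) for 30 min and 1 h over the seawater control and for 8 h over 30 min, filled red where edgeR's adjusted p was below 0.05; black ticks are role medians and the dashed blue line is the median of all genes. All 14 complex I dots lie right of 0 at 30 min and left of 0 at 8 h over 30 min, and the phosphate carriers split in both. These comparisons share the 30 min columns, with opposite sign.

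At 10 h against 8 h, 3 members rose and 0 fell, where 3.66% of all genes passed, 2.77% higher and 0.888% lower. They were TIM44 (CCRYP_018775), by 0.88 ± 0.18 on the log2 scale, the alternative oxidase (CCRYP_014055), by 0.68 ± 0.19, and a DOMON-type cytochrome b561 (CCRYP_002744), by 0.67 (edgeR adjusted p = 0.0058, 0.0418 and 0.0377). The alternative oxidase had 83.7, 62.5 and 97.9 CPM at 10 h and 53.6 and 48.3 CPM at 8 h, with no overlap. No member was called without 8 h replicate 2 or without 8 h replicate 3. Without 10 h replicate 1, 15 min replicate 1 or 15 min replicate 3 the number was 1 each time.

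Against the 0 min freshwater column, 12 members rose at 30 min and 1 fell, where 6.46% of all genes passed, 4.96% higher and 1.5% lower. Of the 27 chain and ATP synthase subunits 8 rose and 0 fell, with a median log2 fold change of 0.69, and 0 passed without 30 min replicate 2. Cytochrome c (CCRYP_002615) rose by 1.74 ± 0.35 on the log2 scale and the acyl carrier protein (CCRYP_020673) by 1.03 (edgeR adjusted p = 0.00608 and 0.0227). The alternative oxidase (CCRYP_014055) did not pass at 30 min against 0 min, with a log2 fold change of 0.13. It fell by 1.15 ± 0.24 at 8 h against 0 min (edgeR adjusted p = 0.0218), where 0.536% of all genes passed. At 1 h 3 members rose against 0 min (5.48% of all genes passed), and at 8 h the alternative oxidase alone fell. No member passed against 0 min at 15 min, 2 h, 4 h or 10 h, where 0.952%, 1.47%, 1.82% and 0.864% of all genes did. These comparisons share their freshwater columns with those against the seawater control.

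Neighbouring pathways were read from lists chosen by words in protein names, which catch relatives with other roles too. Of all genes, 14% rose and 16.7% fell at 30 min against the control, with a median log2 fold change of 0.09. At 30 min 6 of 31 genes named for enzymes of the tricarboxylic acid cycle or pyruvate dehydrogenase rose and 5 fell, with a median log2 fold change of 0.33. That list also holds pyruvate dehydrogenase kinases, chloroplast forms of pyruvate dehydrogenase subunits, ATP-citrate synthase and a dehydrogenase of leucine synthesis. Of 15 tested mitochondrial carriers other than the phosphate carriers 2 rose and 3 fell, with a median of 0.22, and of 11 genes named for prohibitins, the processing peptidase, frataxin or iron-sulfur clusters 3 rose and 0 fell, with a median of 0.38. Of 30 genes with photosystem, ferredoxin or flavodoxin in their names 4 rose and 7 fell, with a median of -0.35. That list is not one of photosynthesis alone, since it holds mitochondrial adrenodoxins and their reductases and enzymes that use ferredoxin or have a domain named after it. At 8 h against 30 min the same lists had medians of -0.29, -0.26, -0.36 and 0.30, so the sign of each was opposite to that at 30 min against the control. Both comparisons contain the 30 min columns.

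The authors' deposited table of fold changes against 0 min gave adjusted p-values for 73 of the 88 members. Adjusted p-values below 0.05 were listed there for 54 members at 30 min, 47 at 1 h and 15 at 8 h. All of these had the opposite sign to a refit of the 27 columns, so a positive value there means a higher level at 0 min.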

How the data were processed

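Raw gene counts were deposited by the authors, made with STAR 2.7.3a and HTSeq 0.11.3, per the submitters' processing notes. Gene models, genome build and strand handling were not given in the sources used here. Genes that overlap on either strand are therefore uncertain. Reads aligned in more than 1 place were not counted. They made up 15.9% to 34.1% of the reads listed per column, and ambiguous reads at most 0.0467%, so near-identical copies are undercounted. A second table deposited by the authors held edgeR log2 fold changes against 0 min with adjusted p-values. None of the members was found among the 14109 genes of the RefSeq table, so no coordinates or sequences are given.

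Members and gene lists were chosen with earlier results of these data known, and roles of 15 members were refined after their names were read. The 16 independent columns were fitted together with edgeR 4.0.16 (R 4.3.3, limma 3.58.1): filterByExpr (minimum count 10, minimum total 15), TMM scaling, robust quasi-likelihood tests, a coefficient for every group, 7 residual degrees of freedom and a common biological coefficient of variation of 14.2%. P-values were adjusted by Benjamini-Hochberg over 12501 genes, and genes below 0.05 were called. CPM values and fold changes both use TMM scaling.

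In each role, the 3 members called across the groups with the greatest change from the control were picked, and roles of at most 4 members in full. Not all of these 47 genes are described by ID. CCRYP_013988 and most complex I and ATP synthase assembly genes are not. The other complex I genes, ATP synthase alpha and beta, UbiE, CCRYP_002744, CCRYP_003312, CCRYP_011910, CCRYP_020013 and CCRYP_020677 were named after their values were seen. Alternatives were DESeq2 1.42.0, its size factors, library size only, no filter on low counts, all 27 columns, a replicate block and leaving out each replicate.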

Additional observations from a re-analysis of the deposited data

How the results depend on the processing

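With 1 seawater control column, every difference from seawater carries that column's own error, and genes at a few CPM carry wide counting error. The number of members called with all 27 columns, which counts copies and means as replicates, was 84 across the groups. Against seawater it was 32 at 0 min, 33 at 15 min, 71 at 30 min and 66 at 1 h. Later times gave 51 (2 h), 39 (4 h), 21 (8 h) and 42 (10 h). It was 66 at 30 min against 15 min and 16 at 10 h against 8 h. Without the filter on low counts it was 1 at 0 min and at 8 h. It was 10 at 2 h, 6 at 4 h and 9 at 10 h. DESeq2 called 1 at 15 min, 2 at 4 h and 1 at 8 h, DESeq2 size factors gave 2 at 4 h, and library size only gave 1 at 2 h and 2 at 4 h. Same-numbered replicates did not all deviate together: 8 of 24 pairs had a correlation over 0.1 (range -0.163 to 0.357), so the numbers were not taken to pair the samples. Those 8 were among the 10 pairs within 2, 4, 8 and 10 h, all positive (0.0844 to 0.357), a hint from the data of pairing at those times, while pairs with 15 or 30 min ran from -0.163 to 0.0638. The replicate block gave 3 members at 1 h and 7 both at 2 h and at 10 h, 2 at 4 h, 24 at 30 min, 52 at 8 h against 30 min and 51 across the groups. Under the block, the log2 fold change of CCRYP_020901, an ATP synthase subunit C methyltransferase, at 4 h was 0.00398, where it was -0.27 without it, and neither passed. Leaving out each replicate gave 30 to 52 members across the groups, 0 to 0 at 0 min, 15 min and 8 h, 16 to 38 at 30 min and 17 to 24 at 1 h. It gave 0 to 7 at 2 h, 1 to 8 at 4 h and 0 to 9 at 10 h. It was 1 to 32 for 30 min against 15 min, 23 to 50 at 8 h against 30 min and 0 to 3 at 10 h against 8 h. At 10 h the number was 0 without 10 h replicate 1, 2 without replicate 2 and 9 without replicate 3. At 2 h it was 0 without 2 h replicate 1, 10 h replicate 1 or either 8 h replicate, and at 4 h 8 without 4 h replicate 3. The 47 genes picked by role were each followed at the time of greatest change. Of 891 alternative values, 823 kept direction and side of the threshold, 34 lost the call, 33 gained it and 1 reversed. The cause of these shifts was not tested.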
